A study of Mus musculus with 14 samples.

Results

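Tnfrsf4 and Tnfrsf18, neighbouring genes on mouse chromosome 4, were described by the open-chromatin windows that lie closest to them. A window belonged to a gene when the annotated start site of that gene was the nearest protein-coding start site to the centre of the window, at most 100 kb away. This gave 22 of the 240778 windows counted in the study, 12 for Tnfrsf4 and 10 for Tnfrsf18. Some windows overlap each other, and joining those left 16 separate regions, 8 for each gene. The assignment of windows to the genes used positions only. The members, lists and tests themselves were chosen with earlier results of these data known.

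Tnfrsf4 encodes OX40 and Tnfrsf18 encodes GITR, a pair of costimulatory receptors of the tumour necrosis factor receptor superfamily that are abundant on regulatory T (Treg) cells. Their ligands, OX40L (Tnfsf4) and GITRL (Tnfsf18), are found mainly on antigen-presenting cells, and the receptors signal through TRAF adaptor proteins to NF-kB. An ATAC-seq window reports how accessible the DNA is to a transposase, and it measures neither the RNA nor the receptor.

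Bulk ATAC-seq was run on Treg cells of spleen and lymph nodes from adult Foxp3AID mice, 1 library per mouse. All mice carried Foxp3AID, an allele that fuses an auxin-inducible degron to Foxp3, the lineage-defining transcription factor of Treg cells, and that also encodes a ZsGreen reporter and Cre. All mice also received the degrader ligand 5-ph-IAA, for 3 or 7 days, so no library came from untreated cells. R26TIR1(F74G) mice carried at the Rosa26 locus the ubiquitin ligase component TIR1(F74G), which recognises the degron when 5-ph-IAA is present, together with mCherry, behind a STOP cassette that Cre from the Foxp3 locus removes. R26WT mice lacked TIR1 and mCherry and served as controls. Effects of carrying these proteins therefore cannot be told apart from those of Foxp3 degradation. In the sorting scheme of the paper, mCherry was required of R26TIR1(F74G) cells and not of R26WT cells. Day 3 had 4 mice of each genotype and day 7 had 3 of each, 14 in all. The labels give neither the exact age, the sex, the zygosity of Foxp3AID nor the activation state of the cells. Degradation acts on the protein, so these counts cannot check it.

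Counts in windows ranged from 5653289 to 20184487 per library, and the shallowest libraries were mouse 1 of the day 3 R26TIR1(F74G) group and mouse 3 of the day 7 R26WT group. Levels are given as CPM, which are counts divided by the library total and put on a common scale, with TMM factors, and since every window has the same span they can be compared between windows. Each library placed between 42.5% and 46.6% of its counts within 1 kb of a start site. Windows within 1 kb of the start were counted at 4 of 5 Treg marker genes, with the highest window at 13.2 CPM for Il2ra, 15.2 for Ctla4, 20.9 for Ikzf2 and 3.2 for Ikzf4. Foxp3 had no window within 1 kb of its annotated start, and its nearest, 4.34 kb away, had 8.92 CPM. Of the T cell genes Cd3e had 11.2, Cd3d 8.09 and Cd4 4.55 CPM, and of the CD8 genes Cd8a had 1.33 and Cd8b1 12.5 CPM. No window lay within 1 kb of the start at Cd79a, Ms4a1 and Pax5 of B cells, at Csf1r and Lyz2 of myeloid cells, and at Ncr1 and Klrb1c of NK cells. The windows of the other marker genes of these lists, Ebf1, Spi1, Cd14, Itgam and Eomes, had between 1.12 and 5.33 CPM. Over the 11479 genes with a window within 1 kb of the start, the median of the highest window was 16.4 CPM. Of the marker genes with such a window only Ikzf2 lay above that median.

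The promoter sequences of both genes are shown because the windows cover them differently. Each runs from 250 bases before to 50 bases after the start site that RefSeq gives on GRCm38.p6, 5′ to 3′ on the plus strand, on which both genes are transcribed. In the Tnfrsf4 promoter, chr4:156013445-156013744, capitals mark the bases inside counted windows. In the Tnfrsf18 promoter, chr4:156026072-156026371, which no window touches, capitals mark the motif matches described next.
Tnfrsf4: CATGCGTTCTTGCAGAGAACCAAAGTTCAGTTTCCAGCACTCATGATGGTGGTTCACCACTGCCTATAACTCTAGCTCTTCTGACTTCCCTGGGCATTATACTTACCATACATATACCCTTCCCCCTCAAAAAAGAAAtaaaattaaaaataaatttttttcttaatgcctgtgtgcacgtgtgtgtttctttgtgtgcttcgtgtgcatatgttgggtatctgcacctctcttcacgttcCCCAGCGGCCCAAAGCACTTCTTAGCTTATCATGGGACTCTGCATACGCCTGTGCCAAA
Tnfrsf18: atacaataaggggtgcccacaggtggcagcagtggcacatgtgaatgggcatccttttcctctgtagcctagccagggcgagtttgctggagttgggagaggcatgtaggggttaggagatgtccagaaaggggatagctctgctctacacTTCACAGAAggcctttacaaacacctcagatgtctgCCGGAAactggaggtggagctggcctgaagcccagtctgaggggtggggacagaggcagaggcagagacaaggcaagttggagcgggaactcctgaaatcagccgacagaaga

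In the Tnfrsf4 promoter 197 of 300 bases lay in 3 windows, and in the Tnfrsf18 promoter 0 bases lay in a window. The file does not say whether window starts count from 0 or from 1, so the edge of the capitals may be off by a base. GC content was 43.7% at Tnfrsf4, which was higher than in 14% of the 21037 promoters of the same length, and 55.3% at Tnfrsf18, higher than in 45.1%, with a median of 56.7% over all of them. Tnfrsf4 had 6 CpG dinucleotides and Tnfrsf18 had 4, against a median of 13. Motifs were searched as exact letters on both strands. A STAT motif (TTCNNNGAA), present in 7.76% of promoters, had 1 match at Tnfrsf18, starting at position -99 from the start site, and an ETS motif (CCGGAA), present in 18.9%, had 1 match there at position -63, and the 2 matches do not overlap. Neither promoter held the letters of an AP-1 motif (TGANTCA, in 7.04% of promoters), a forkhead motif (TGTTTAC, 3.03%), a Runx motif (TGTGGT, 14.8%), a TATA box (TATAAA, 12.7%) or the kappaB consensus (9.35%). These are descriptions of letters in short stretches and say nothing about binding.

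Tnfrsf4 spans chr4:156013595-156016613 and Tnfrsf18 spans chr4:156026322-156028894 in RefSeq coordinates of GRCm38, the build of the windows. Window positions are given as the distance of the centre from the start of the gene. Of the 12 Tnfrsf4 windows, 10 lay upstream, between -9724 and -114 bp, and all of these fall inside Sdf4, whose gene body (chr4:155992843-156013610) runs up to the start of Tnfrsf4. The other 2, at +191 and +554 bp, lay inside Tnfrsf4, and the first is the window at the start site that RefSeq gives for the promoter, 156013695. Of the 10 Tnfrsf18 windows, 3 lay between the genes, from -4788 to -4002 bp, and 7 lay from +4480 to +7316 bp, beyond the end of Tnfrsf18 and before the end of Ttll10, which is transcribed towards them from chr4:156034835-156050817. No window lay at the start or inside the gene body of Tnfrsf18. The nearest-start-site rule does not show which gene a window acts on.

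The most accessible window was the one nearest to Tnfrsf18, at -4002 bp (chr4:156022220-156022421), with a mean of 26.8 CPM over the 14 mice, above 97.7% of all windows. Its values ran from 22.2 to 31.4 CPM and did not overlap those of the next window in the order, at -4322 bp (chr4:156021900-156022101), which had 16.8 CPM and ran from 12.6 to 20.5. Below these came the Tnfrsf18 windows at +7316 bp (11.2 CPM) and -4788 bp (10.2 CPM) and the Tnfrsf4 windows at -9325 bp (10.0 CPM) and +191 bp (9.44 CPM), whose ranges over the mice overlapped one another. The window that covers the region just upstream of the Tnfrsf4 start, at -114 bp, had 3.73 CPM. The lowest member, at -8715 bp of Tnfrsf4, had 0.857 CPM. The 2 highest windows of Tnfrsf18 lay several kb upstream of its start, and the 2 highest of Tnfrsf4 lay at the start and in a separate peak inside Sdf4.

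**Figure D1:**
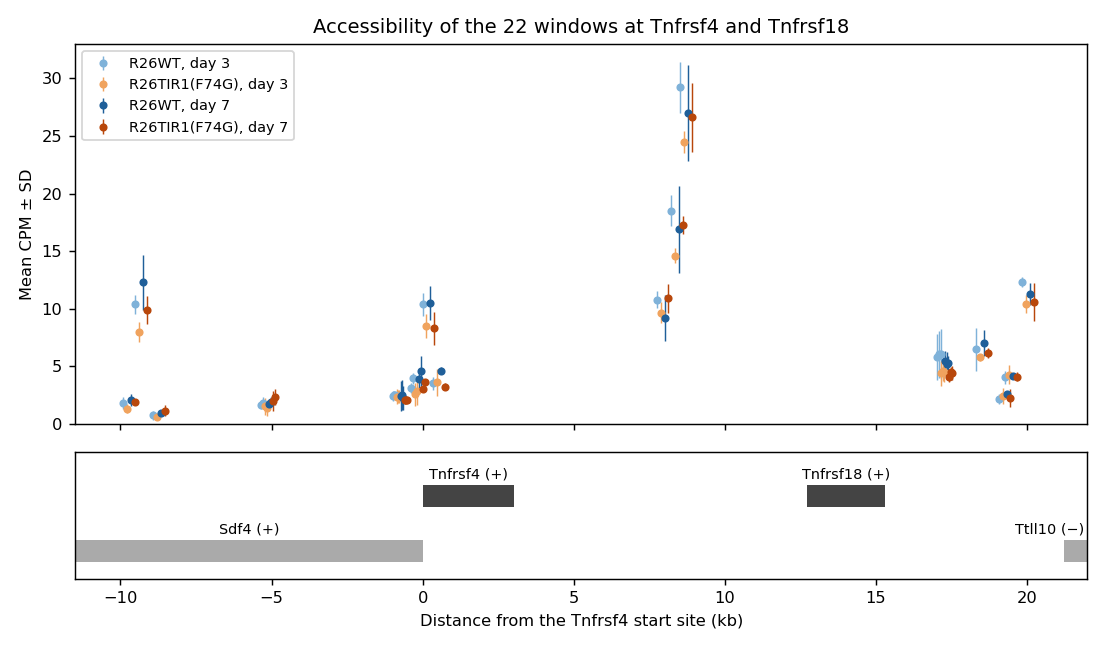
Mean CPM with SD of each of the 22 windows in the 4 groups (y axis) against the distance from the Tnfrsf4 start site in kb (x axis), with the genes drawn below and groups shifted slightly sideways. The window nearest to Tnfrsf18 stands highest at 26.8 CPM over all mice, and no window lies over Tnfrsf18 itself.

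Day 3 compares the genotypes at the 2 genes after 3 days of 5-ph-IAA. In 4 of 22 windows every R26TIR1(F74G) mouse was below every R26WT mouse, and in 0 every one was above, where 4.09% of all windows had no overlap in either direction and 2.08% had every R26TIR1(F74G) mouse lower. Of these 4, the window at +7316 bp of Tnfrsf18 is outside the rule for named windows and was chosen after its values were seen. None of the 21 windows tested passed an adjusted p of 0.05 in edgeR's quasi-likelihood test, where 0 of 235515 windows (0%) did. The smallest adjusted p among them was 0.543, and 6 had an unadjusted p under 0.05, all with a log2 fold change below 0. In edgeR 7.55% of all windows had such a p (3.62% below 0). DESeq2 called 0 of 21 with 3 at an unadjusted p under 0.05, beside 11762 of 235515 windows. With total counts as the scale 3 had an unadjusted p under 0.05 in edgeR (18393 of 235515 windows). With count-dependent loess offsets 2 did (15745 of 235515). With the letters that begin the mouse names (AC or E) as a term 8 did (15950 of 235515). With all 14 libraries in one fit 7 did (19251 of 235515), and with the replicate number as a block 5 did (16391 of 235515). In the main fit the median log2 fold change of R26TIR1(F74G) against R26WT was -0.25 over the 21 members and 0.01 over all windows. Of the members 18 of 21 were below 0, as were 48.8% of all windows.

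At the window nearest to Tnfrsf18, at -4002 bp, the 4 R26WT mice had 27.5, 27.1, 31.4 and 30.9 CPM on day 3 and the 4 R26TIR1(F74G) mice had 25.2, 24, 23.3 and 25.3. The genotypes did not overlap, with means of 29.2 ± 2.22 and 24.5 ± 0.957 CPM (SD, n = 4 each). The log2 fold change was -0.26 ± 0.12 (SE; edgeR adjusted p = 0.616). At -4322 bp the R26WT mice had 18.1, 17.7, 17.6 and 20.5 CPM and the R26TIR1(F74G) mice 14, 14, 15.1 and 15.1. Here too every R26WT mouse was higher, and the log2 fold change of -0.34 ± 0.13 had the smallest p of the members on day 3 (edgeR unadjusted p = 0.00879, adjusted p = 0.543). At +7316 bp, beyond the end of Tnfrsf18, the R26WT mice had 12.3, 11.7, 12.4 and 12.7 CPM and the R26TIR1(F74G) mice 11.3, 10.7, 9.76 and 9.73, with a log2 fold change of -0.25 ± 0.14 (edgeR adjusted p = 0.694).

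At Tnfrsf4 the window at -9325 bp (chr4:156004170-156004371), inside Sdf4, showed the same separation on day 3. The R26WT mice had 9.35, 10.9, 10.3 and 11.2 CPM and the R26TIR1(F74G) mice 7.19, 7.83, 7.68 and 9.17. The log2 fold change was -0.38 ± 0.15 (SE; edgeR unadjusted p = 0.0106, adjusted p = 0.552). At the start site itself, in the window at +191 bp (chr4:156013686-156013887), which was added after its values were seen, the R26WT mice had 9.18, 10.4, 10.6 and 11.6 CPM and the R26TIR1(F74G) mice 7.73, 7.46, 9.61 and 9.17. These groups overlapped, and the log2 fold change was -0.30 ± 0.15 (edgeR adjusted p = 0.659). Just upstream, at -114 bp (chr4:156013381-156013582), the R26WT mice had 4.24, 3.57, 3.55 and 4.54 CPM, and the R26TIR1(F74G) mice had 1.08, 3.33, 3.28 and 3.7. Mouse 1 of the R26TIR1(F74G) group, the shallowest library of that day, was far below the others here, and the log2 fold change was -0.37 ± 0.21 (edgeR adjusted p = 0.712).

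**Figure D2:**
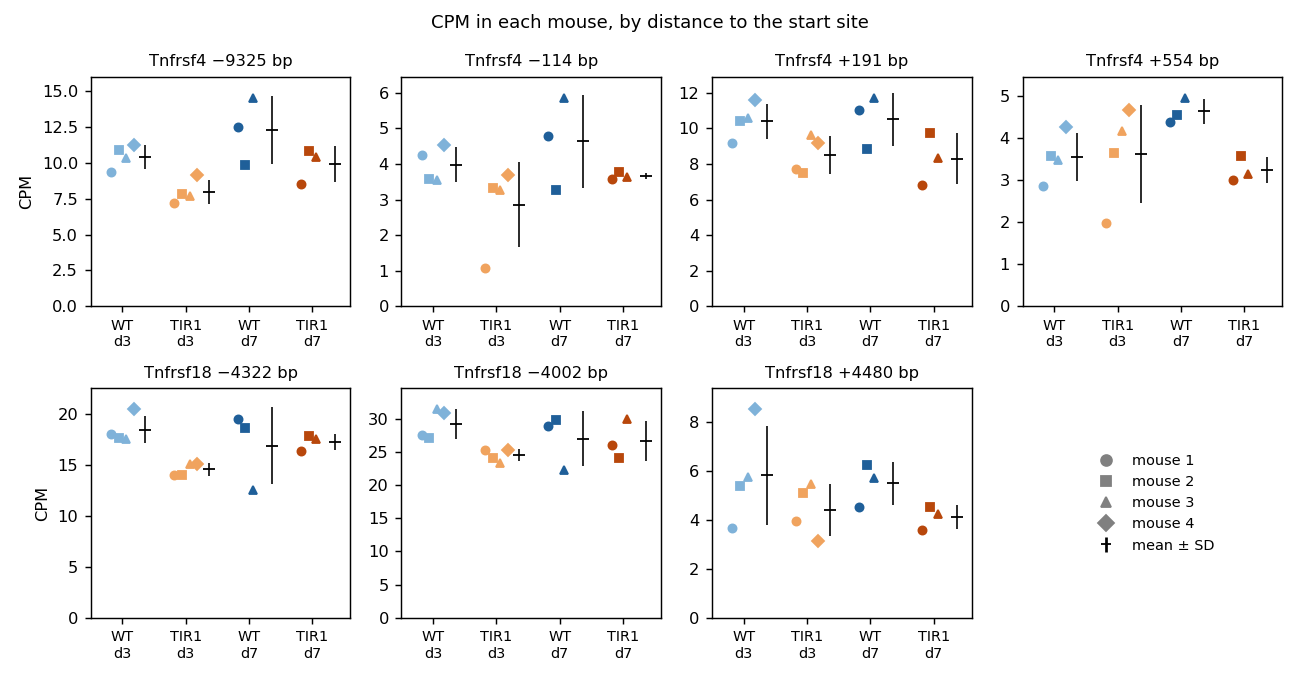
CPM of each mouse (y axis, from 0) at 7 windows in the 4 groups (x axis; WT, R26WT; TIR1, R26TIR1(F74G); d3 and d7, days), with marker shapes for mouse numbers and black bars for the mean with SD. On day 3 the R26TIR1(F74G) mice lie below all R26WT mice at -9325 bp of Tnfrsf4 and at -4322 and -4002 bp of Tnfrsf18, and on day 7 only at +554 bp of Tnfrsf4.

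Windows with many reads leaned in the same direction on day 3. Of the 66750 windows averaging 50 or more reads per library, 67.4% had a log2 fold change below 0 on day 3, the median was -0.08, 5.21% had no overlap and 4.42% had every R26TIR1(F74G) mouse lower. Of the 13 member windows with such a count, the median was -0.30, 11 were below 0 and 4 had every R26TIR1(F74G) mouse lower. In edgeR 9.75% of the 66750 windows and 6 of these 13 members had an unadjusted p under 0.05 on day 3. The members at +4556 and +4606 bp of Tnfrsf18, both among the 6, overlap each other. The share of counts near start sites was 42.5% to 46% in the R26TIR1(F74G) mice of day 3 and 44.7% to 46.6% in the R26WT mice. Over all 14 mice, the log2 CPM at -4002 bp of Tnfrsf18 went with that share (Pearson's r = 0.774, permutation p = 0.00103, adjusted p = 0.0103; Spearman's rho = 0.789, permutation p = 0.0013, adjusted p = 0.013; 10 relations computed). Without the 2 mice farthest from the median level r was 0.673. Within day 3 r was 0.724 (n = 8, two-sided exact permutation p = 0.044, adjusted p = 0.11) and within day 7 it was 0.856 (n = 6, two-sided exact permutation p = 0.00972, adjusted p = 0.0486), and without the 2 farthest mice it was 0.378 and 0.449, so the size of r within a day rests on those mice. Spearman's rho within day 3 was 0.714 (n = 8, exact permutation p = 0.0576, adjusted p = 0.178) and within day 7 it was 0.943 (n = 6, exact permutation p = 0.0167, adjusted p = 0.0833). Within the 10 mice whose names begin with AC r was 0.668 (permutation p = 0.0318, adjusted p = 0.106) and 0.246 without the 2 farthest, and the 4 mice whose names begin with E were too few. For the Tnfrsf4 window at -114 bp, which averaged 54.4 reads against 394 at -4002 bp of Tnfrsf18, r was 0.091 (permutation p = 0.759). How many other windows of like level went with the share as strongly was not computed. The relation is therefore not shown to be particular to Tnfrsf18. The part of the share of counts near start sites in the day 3 difference was not tested.

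**Figure D3:**
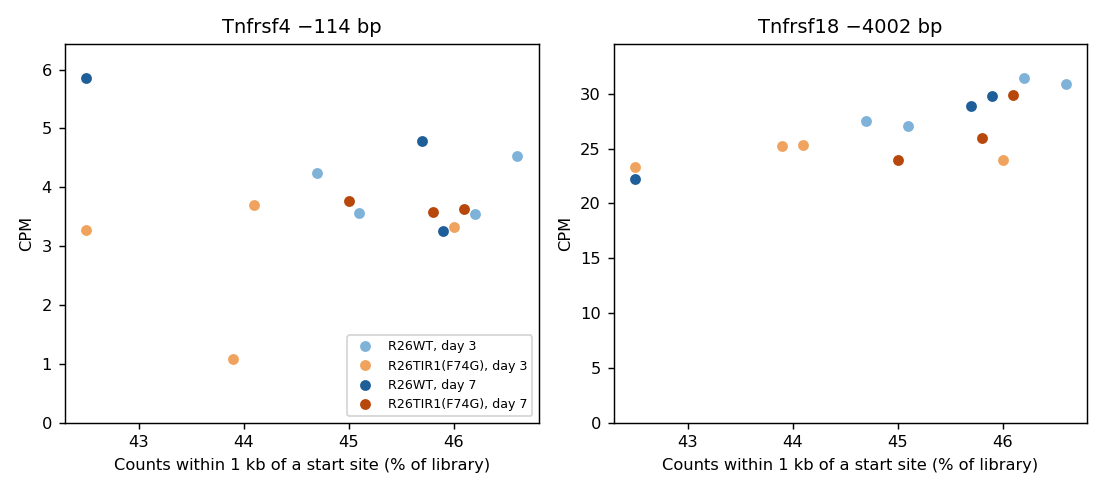
CPM at the window nearest to the start of each gene's RefSeq span (y axis, from 0; for Tnfrsf4 this is -114 bp, and the start site of its promoter lies in the window at +191 bp) against the percentage of a library's counts within 1 kb of any start site (x axis), 1 point per mouse coloured by group. At Tnfrsf18 (-4002 bp) mice with a higher share tend to have a higher level (Pearson's r = 0.774 over 14 mice), and at Tnfrsf4 (-114 bp) r is 0.091.

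Summed levels of the marker windows overlapped between the genotypes on day 3 in all 6 lists, and their difference was not tested. The summed level of the 3 T cell genes was 25.5 to 27.3 CPM in R26WT and 17.1 to 25.9 in R26TIR1(F74G) mice, and that of the 4 Treg genes with a window was 49.8 to 61.1 and 46.3 to 57.4. For the 2 CD8 genes it was 12.6 to 14.4 and 11.3 to 15.5 CPM, for the 1 of 4 B cell genes with a window 2.51 to 3.76 and 2.76 to 5.22, for the 3 of 5 myeloid genes 9.15 to 11.7 and 9.33 to 10.1 and for the 1 of 3 NK cell genes 5.23 to 5.97 and 4.26 to 5.58. Their part in the values at Tnfrsf4 and Tnfrsf18 was not tested. The day 3 count leaned on single R26WT mice. Without mouse 4 of that group, 2 rather than 6 windows had an unadjusted p under 0.05 in edgeR, beside 13726 of 234002 windows. Without mouse 3 of that group 3 did, beside 14927 of 235263 windows.

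On day 7, after longer treatment, none of the 22 windows passed the threshold in edgeR (smallest adjusted p 0.78), where 11 of 237811 windows (0.00463%) did, and DESeq2 called none. In edgeR 3 of 22 had an unadjusted p under 0.05, all with a log2 fold change below 0, against 5.95% of all windows (3.2% below 0). In DESeq2 1 did, beside 6367 of 237811 windows. The median log2 fold change was -0.12 over the members and -0.01 over all windows, and 16 of 22 were below 0 against 51% of all windows. Of the 66750 windows averaging 50 or more reads, 44.4% were below 0 on day 7 and their median was 0.02. An unadjusted p under 0.05 in edgeR was found in 7.65% of them. Of the 13 members with such a count, 11 were below 0, their median was -0.22 and 3 had such a p. Only the window at +554 bp of Tnfrsf4 (chr4:156014049-156014250), inside the gene, had every R26TIR1(F74G) mouse below every R26WT mouse, 1 of 22 where 11.8% of all windows had no overlap and 6.04% had every R26TIR1(F74G) mouse lower. Its R26WT mice had 4.39, 4.54 and 4.95 CPM and its R26TIR1(F74G) mice 2.99, 3.58 and 3.14. The log2 fold change was -0.50 ± 0.20 (SE; edgeR unadjusted p = 0.0146, adjusted p = 0.78). On day 3 the same window overlapped widely, with 2.86, 3.57, 3.48 and 4.25 CPM in R26WT mice and 1.98, 3.65, 4.17 and 4.67 in R26TIR1(F74G) mice, and a log2 fold change of 0.09 ± 0.20 (edgeR adjusted p = 0.958).

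The 4 windows that separated the genotypes on day 3 overlapped between them on day 7 with all mice included. At -4002 bp of Tnfrsf18 the R26WT mice had 28.9, 29.8 and 22.2 CPM on day 7 and the R26TIR1(F74G) mice 26, 24 and 29.9, with a log2 fold change of -0.04 ± 0.13 and a 95% interval from -0.29 to 0.22. At -4322 bp they had 19.5, 18.7 and 12.6 CPM against 16.4, 17.9 and 17.6 (log2 fold change -0.01 ± 0.14, 95% interval -0.28 to 0.27). Mouse 3 of the R26WT group, the shallowest library of that day, was the lowest of all 14 mice at both. At +7316 bp the R26WT mice had 12, 11.7 and 10.2 CPM and the R26TIR1(F74G) mice 8.72, 11.4 and 11.6 (log2 fold change -0.12 ± 0.15, 95% interval -0.41 to 0.18). Without mouse 3 of the R26WT group 6 of 22 windows had no overlap on day 7, where 22.4% of all windows had none. Every R26TIR1(F74G) mouse was then lower at -4322 and +7316 bp of Tnfrsf18 and at +554 bp of Tnfrsf4, and higher in the 3 overlapping Tnfrsf4 windows from -781 to -711 bp. At -9325 bp of Tnfrsf4 the R26WT mice had 12.5, 9.83 and 14.5 CPM and the R26TIR1(F74G) mice 8.5, 10.8 and 10.4 (log2 fold change -0.27 ± 0.15; edgeR adjusted p = 0.865), and at +191 bp they had 11, 8.84 and 11.7 against 6.84, 9.72 and 8.35 (-0.32 ± 0.16; edgeR adjusted p = 0.837). At -114 bp the R26WT mice had 4.78, 3.26 and 5.85 CPM and the R26TIR1(F74G) mice 3.58, 3.76 and 3.64, with a log2 fold change of -0.27 ± 0.21 (edgeR adjusted p = 0.909).

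A test of the difference between the days, the interaction of day and genotype, called 0 of 22 windows in edgeR (smallest adjusted p 0.788; 0 of 240778 windows, 0%) and 0 in DESeq2. In edgeR 1 window, at +554 bp of Tnfrsf4, had an unadjusted p under 0.05, against 6.32% of all windows. In DESeq2 0 did, beside 11424 of 240778 windows. At +554 bp the genotype effect of day 7 minus that of day 3 was -0.59 ± 0.29 on the log2 scale (edgeR unadjusted p = 0.0455). At -4322 bp of Tnfrsf18 it was 0.34 ± 0.19 and at -4002 bp 0.23 ± 0.17 (edgeR adjusted p = 0.814 and 0.875), so the days are not shown to differ there.

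With both days in one fit, 18 of 22 windows had a log2 fold change below 0 (49.3% of all windows), with a median of -0.17 over the members and 0.00 over all windows. None passed the threshold in edgeR (smallest adjusted p 0.477), where 27 of 240778 windows (0.0112%) did. In DESeq2 0 did of the 6 members to which its filter gave an adjusted p (smallest 0.111), and the other 16 were given none. In edgeR 6 of 22 had an unadjusted p under 0.05, all below 0, against 6.73% of all windows (3.57% below 0). In DESeq2 9 did, beside 14153 of 240778 windows. Of all windows averaging 50 or more reads, 59.3% were below 0, their median was -0.03 and 9.24% had an unadjusted p under 0.05 in edgeR. Of the 13 members with such a count, 12 were below 0, their median was -0.19 and 6 had such a p. The 6 windows found in edgeR lay in 4 regions. At Tnfrsf4 these were the windows at -9325 bp (-0.34 ± 0.11; edgeR unadjusted p = 0.00239, adjusted p = 0.477), +191 bp (-0.31 ± 0.11; edgeR adjusted p = 0.563) and -114 bp (-0.33 ± 0.15; edgeR adjusted p = 0.713). At Tnfrsf18 they were 3 overlapping windows of 1 region, from +4480 to +4606 bp, led by +4480 bp (chr4:156030702-156030903; -0.40 ± 0.14, edgeR unadjusted p = 0.00734, adjusted p = 0.576). In that window the R26WT mice had 3.64, 5.36, 5.74 and 8.5 CPM on day 3 and 4.52, 6.22 and 5.7 on day 7. The R26TIR1(F74G) mice had 3.96, 5.1, 5.44 and 3.14 CPM on day 3 and 3.58, 4.53 and 4.25 on day 7. The genotypes overlapped on both days, and mouse 4 of the R26WT group on day 3, with 8.5 CPM, was the highest. Without that mouse 2 of 22 windows rather than 6 had an unadjusted p under 0.05 in edgeR, beside 13809 of 240081 windows. No member window separated the genotypes over all 14 mice, where 0.116% of all windows did.

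**Figure D4:**
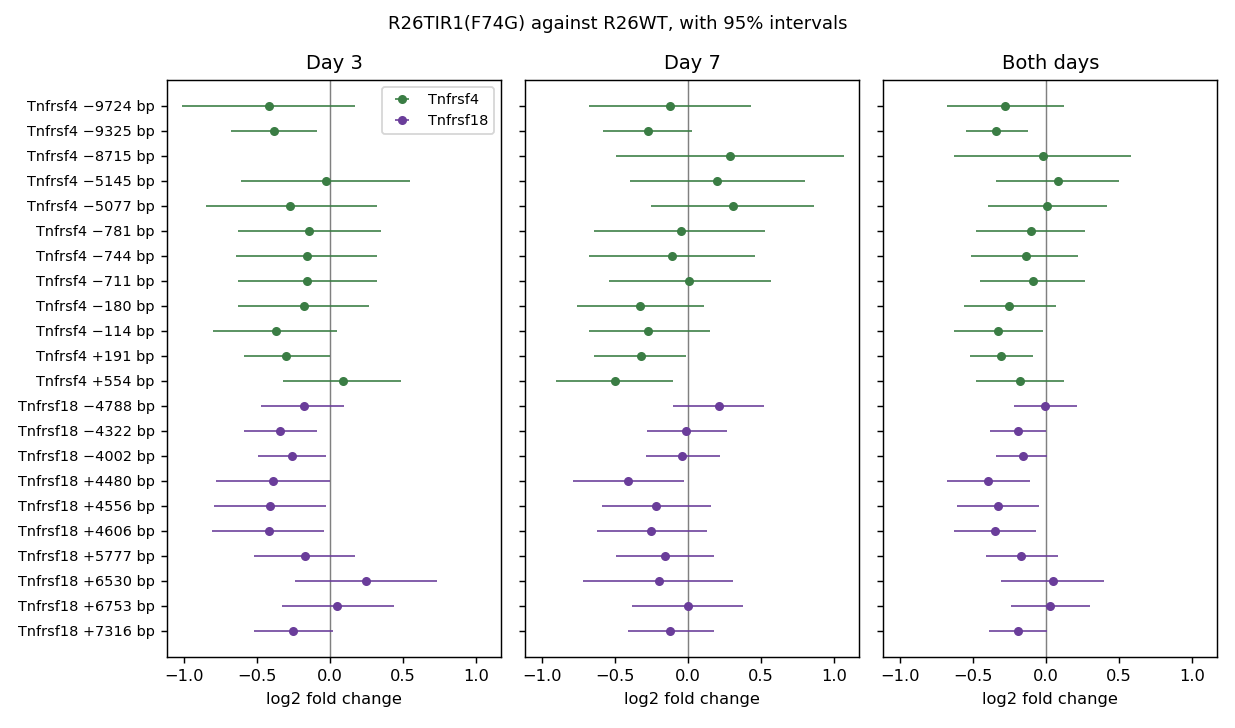
Log2 fold change of R26TIR1(F74G) against R26WT with 95% intervals (x axis) for the 22 windows (y axis, by distance to the start site), 1 panel per day and 1 for both days together. Most estimates lie below 0, with medians of -0.25, -0.12 and -0.17, and no window passed the adjusted threshold. The window at -8715 bp was too low to be tested on day 3.

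Summed over the 8 regions of each gene, with the window of highest mean count for each, the levels were as follows. On day 3 the Tnfrsf18 sum was 84.2, 83.5, 89.1 and 101 CPM in R26WT mice and 77.7, 76.4, 74.1 and 76.6 in R26TIR1(F74G) mice, without overlap. On day 7 it was 88.6, 89.5 and 72.4 in R26WT and 79, 79 and 89.6 in R26TIR1(F74G) mice, with overlap. The Tnfrsf4 sum on day 3 was 33.2, 34.8, 34.7 and 38.8 CPM in R26WT mice and 23.7, 28.4, 30 and 32.5 in R26TIR1(F74G) mice, again without overlap. On day 7 it was 38.5, 33.4 and 47.1 against 28.2, 36.8 and 32.9, with overlap. These sums describe the members together, include the windows that separated the genotypes alone, and were not tested. The share of other genes whose sums separate in this way was not computed.

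Time under treatment was compared within each genotype. In R26WT mice, day 7 against day 3 called 0 of 22 windows in edgeR (smallest adjusted p 0.965; 7 of 232991 windows, 0.003%) and 0 in DESeq2. In R26WT mice 0 members had an unadjusted p under 0.05 in either tool. Of all windows 5.25% did in edgeR and 6181 of 232991 did in DESeq2. The median log2 fold change of the members was 0.00. In R26TIR1(F74G) mice day 7 against day 3 called 0 of 22 in both tools (edgeR's smallest adjusted p 0.645; 0 of 239163 windows, 0%). In edgeR 2 had an unadjusted p under 0.05 and in DESeq2 1 did, against 6.96% of all windows in edgeR and 9991 of 239163 in DESeq2. Those 2 were the weak Tnfrsf4 windows at -8715 bp (0.96 ± 0.41) and -5077 bp (0.60 ± 0.29; both edgeR, adjusted p = 0.645 and 0.701). At -8715 bp the R26TIR1(F74G) mice had 0.54, 0.537, 0.745 and 0.563 CPM on day 3 and 1.02, 1.73 and 0.809 on day 7.

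No relation between the 2 genes from mouse to mouse was detected. The log2 CPM of their nearest windows had a Pearson's r of 0.0728 (permutation p = 0.838, adjusted p = 0.931) and a Spearman's rho of 0.033 (permutation p = 0.915, adjusted p = 1) over 14 mice, and r was 0.388 without the 2 mice farthest from the median. Within day 3 r was 0.381 (n = 8, exact permutation p = 0.41), within day 7 -0.58 (n = 6, exact permutation p = 0.224) and within the 10 AC mice -0.0287 (permutation p = 0.941). Spearman's rho was 0.667 within day 3 (exact permutation p = 0.0831, adjusted p = 0.178) and -0.6 within day 7 (exact permutation p = 0.242, adjusted p = 0.403). Within the AC mice rho was -0.236 (permutation p = 0.514). For deviations from the group means over 14 mice r was -0.327 (permutation p = 0.257, adjusted p = 0.428). As a description over all pairs of windows in different regions, the median r was 0.25 for 61 pairs of Tnfrsf4, 0.243 for 42 pairs of Tnfrsf18 and 0.112 for 120 pairs between the genes, all from the same 14 libraries. The spread between mice of a group also differed along the locus. The SD of log2 CPM within groups was 0.129 at +7316 bp and 0.141 at -4002 bp of Tnfrsf18, and 0.41 at -114 bp of Tnfrsf4, against a median of 0.203 over the 66750 windows averaging 50 or more reads.

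Among 27462 other windows within 1 kb of a start site, each averaging 50 or more reads, those most like the Tnfrsf18 window at -4002 bp over the 14 mice lay at Hnrnpa0, which encodes an RNA-binding protein (Pearson's r = 0.931), at Cdt1, a DNA replication licensing factor (0.923), and at Arrb1, which encodes a beta-arrestin (0.917). Those most like the Tnfrsf4 window at -114 bp lay at Sh3bgrl3 (0.916), Gas2l1 (0.911) and Slc25a17, a peroxisomal carrier (0.902). By Spearman's rho Hnrnpa0, Cdt1 and Arrb1 ranked 6, 16 and 21, and by Pearson's r within day 3 they ranked 11, 119 and 9. Sh3bgrl3, Gas2l1 and Slc25a17 ranked 21, 7 and 92 by rho, and 262, 5 and 120 by r within day 3. With so many windows compared over 14 libraries these values are descriptions only.

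The ligands and the downstream pathway were read in the same way. For 18 genes, namely the ligands Tnfsf4 and Tnfsf18, the adaptors Traf1, Traf2, Traf3 and Traf5, the kinases Map3k14, Chuk and Ikbkb, the NF-kB subunits Nfkb1, Nfkb2, Rela and Relb, the inhibitors Nfkbia and Nfkbie, and Birc2, Birc3 and Tnfaip3, which regulate ubiquitin signals of the pathway, 473 windows were nearest. None passed the threshold in either direction in edgeR, of 471 tested for day 7, 464 for day 3 and 473 over both days, and 22, 42 and 31 of them had an unadjusted p under 0.05. These are 4.67%, 9.05% and 6.55% of those tested, beside 5.95%, 7.55% and 6.73% of all windows. The median log2 fold changes were -0.02, -0.05 and -0.03, beside -0.01, 0.01 and 0.00 over all windows. Over both days the gene medians ran from -0.20 for the 12 windows of Rela to 0.07 for the 79 windows of Nfkb1, with -0.02 for the 29 windows of Tnfsf4 and 0.05 for the single window of Tnfsf18. On day 3 the gene medians ran from -0.34 for Rela to 0.11 for Tnfsf18. In edgeR 6 of 12 windows of Rela, 5 of 12 of Nfkb2 and 4 of 12 of Map3k14 had an unadjusted p under 0.05 that day. Their medians were -0.34, -0.27 and -0.16. These shares were above the 28.6% of the member windows tested, and no other gene of the list had a share above it.

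The genes next to the pair were Ube2j2, C1qtnf12, B3galt6, Sdf4, Ttll10 and 9430015G10Rik, with 36 windows. None passed the threshold in edgeR on either day or over both. Over both days 7 of 36 had an unadjusted p under 0.05 (19.4%, beside 27.3% of the 22 member windows and 6.73% of all windows), and the median log2 fold change was -0.15. On day 3 the median was -0.21 with 6 of 34 tested windows at an unadjusted p under 0.05 (17.6%, beside 28.6% of the member windows tested and 7.55% of all windows). On day 7 it was -0.10 with 0 of 35, beside 13.6% of the member windows and 5.95% of all windows.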

How the data were processed

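The authors aligned ATAC-seq reads with Bowtie2 to mm10, called peaks with MACS2, merged reproducible peaks and used featureCounts to count reads around each summit. The deposited values are these raw counts, not normalized, for 240778 windows and 14 libraries. How duplicates and the transposase offset were handled is fixed in these counts. Groups came from the labels, and all columns matched a sample by mouse name.

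Windows were assigned to RefSeq start sites on GRCm38. The 22 windows kept their gene with the start sites of the RefSeq promoter table. Counts were tested with edgeR 4.0.16 (quasi-likelihood test, TMM, mean count of at least 10 per window, Benjamini-Hochberg threshold 0.05) over all windows, in R 4.3.3, and with DESeq2 1.42.0 as an alternative. Standard errors are those implied by the test statistic. The fits were tested on simulated counts. Log2 CPM used a pseudocount of 0.5, and correlations used 100000 permutations or, under 10 mice, all of them. P-values measure the spread between mice, and reads, amplified by PCR with no molecular identifiers, are not independent molecules.

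The named windows are, for each gene, the one with the highest mean count, the one nearest to the start and those with the smallest p in the 3 genotype comparisons. The members, lists and tests were chosen with earlier results of these data known. Alternatives were other scalings (total counts, DESeq2's size factors, loess offsets), filters, DESeq2, the replicate number as a block, the prefix of the mouse name, all 14 libraries in one fit and each mouse left out. Sequences of the windows themselves, exons and protein sequences were not used here, and 1 B cell marker gene is not reported here.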

Additional observations from a re-analysis of the deposited data

Results flagged for a closer look

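Within the groups of 4 on day 3, 6 of 44 sets of values (22 windows in 2 groups) had a mouse far from the other 3 by Dixon's ratio, where chance gives about 1 in 20, or 2.2. In the R26WT group, mouse 2 had 1.79 CPM at -781 bp and 2.05 CPM at -744 bp of Tnfrsf4, 2 overlapping windows in which the other mice had 2.6 to 2.73 and 2.68 to 2.73 CPM. In the same group, mouse 4 had 20.5 CPM at -4322 bp of Tnfrsf18, where the others had 17.6 to 18.1.

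In the R26TIR1(F74G) group, mouse 1, the shallowest library, had 1.08 CPM at -114 bp of Tnfrsf4, where the others had 3.28 to 3.7. Mouse 3 had 0.745 CPM at -8715 bp of Tnfrsf4 (others 0.537 to 0.563), and mouse 2 had 3.49 CPM at +6530 bp of Tnfrsf18 (others 1.98 to 2.24). The groups of 3 on day 7 were not examined in this way.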

How the results depend on the processing

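In each of the 6 comparisons, 0 of the member windows that were given an adjusted p passed the threshold under every alternative run (15 for day 7, 17 for day 3, 22 for both days, 22 for the interaction, 16 for each comparison of days), and the smallest adjusted p under any was 0.111, for DESeq2 over both days. That alternative gave an adjusted p to only 6 of 22 members, and 210066 of 240778 windows were left without one, so the other 16 members could not pass. A mean count of at least 50 left 12 to 14 members. With the replicate number as a block the count was also 0 in all 6. Same-numbered mice deviated together with correlations from -0.0787 to 0.0652, so the numbers do not pair the mice. Over all windows the calls were 11 on day 7 (0 with DESeq2 to 52 with the replicate block), 0 on day 3 (up to 30 without R26TIR1(F74G) mouse 1), 27 over both days (2 without day 7 R26WT mouse 2 to 155 with DESeq2), 0 for the interaction (up to 19 without day 7 R26WT mouse 1), 7 between days in R26WT (0 with DESeq2 to 57 without day 7 R26WT mouse 1) and 0 in R26TIR1(F74G) (up to 364 without day 3 mouse 2).

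Of the named windows' log2 fold changes, all alternative values kept their direction over both days, all but 2 did on day 3 and all but 8 on day 7. The exceptions had estimates near 0. On day 7 at -4322 bp of Tnfrsf18 (-0.01) the value was 0.00 with DESeq2 and 0.03 with the replicate block, and ran from -0.14 to 0.09 over fits that left out a mouse. At -4002 bp (-0.04) it ran from -0.14 to 0.04 over such fits. On day 3 at +554 bp of Tnfrsf4 (0.09) it was -0.03 with the prefix of the mouse name as a term and ran from -0.03 without R26TIR1(F74G) mouse 4 to 0.21 without mouse 1. The cause was not tested.

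With loess offsets, which centre windows of like level, the day 3 median of the members was -0.18 and 2 of 21 windows had an unadjusted p under 0.05, against -0.25 and 6. With total counts, which moved the day 3 median of all windows from 0.01 to 0.06, these were -0.20 and 3. The number of windows without overlap, examined under alternatives chosen after seeing the data, was 4 on day 3 with total counts (4.08% of all windows) and without R26TIR1(F74G) mouse 1 (8.21% of all windows, against 4.09% with all mice). On day 7 it was 1 with total counts (12.1%) and 6 without R26WT mouse 3 (22.4%, against 11.8%). Over leave-one-out fits in edgeR the members with an unadjusted p under 0.05 numbered 2 to 7 on day 3. They numbered 1 to 5 on day 7 and 2 to 9 over both days. On day 3, 18796 of 234884 windows stood beside the 7 (without R26WT mouse 1) and 13726 of 234002 beside the 2 (without R26WT mouse 4). On day 7, 14452 of 236517 stood beside the 5 (without R26WT mouse 2). Without R26TIR1(F74G) mouse 1, 11664 of 235579 stood beside 1. Over both days, 15986 of 239338 stood beside the 9 (without day 7 R26TIR1(F74G) mouse 3). Without day 3 R26WT mouse 4, 13809 of 240081 stood beside the 2. The mean count of the weakest member, 12.5 reads, limits what could be seen there.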
